A study of Mus musculus with 8 samples.

Results

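H3K27ac was measured at 18 peaks in the window of mouse chromosome 5 that holds Apbb2, from base 66650000 to base 67060000 of the mm9 genome, out of 22731 peaks in the whole series and 1863 on chromosome 5. The members are every deposited peak that overlaps this window. They were chosen from the measured values: in an earlier look at the same comparison, these peaks stood in an unbroken stretch of lower H3K27ac in the knockout. Their differences between the groups are therefore a description, without a test.

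CUT&RUN was performed on mouse colon cancer organoids; here an antibody against a chromatin mark guides a nuclease, and the DNA it cuts free is sequenced. The libraries compared are 3 H3K27ac libraries of genotype Gata6KO_AKP and, as controls, 3 of genotype AKP, so all 6 share the AKP background. The labels do not spell out the alleles behind AKP. Recipient mice are given as C57Bl6 for all of them. The sources do not say how Gata6 was removed, whether the knockout was 1 clone, or whether replicates were separate cultures, so the spread between libraries may be technical. The other libraries, 1 H3K4me3 and 1 IgG from control organoids, were not analysed here, and no background level was subtracted. Neither the level at Gata6 itself nor markers of colon epithelium were used as a check of the labels, since the peaks come with positions only and no mm9 annotation was used here.

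Acetylation of histone H3 at lysine 27 is laid down at active promoters and enhancers, and long genes often carry several acetylated stretches inside their introns. Apbb2 encodes an adaptor protein of the FE65 family, known also as FE65L1, which binds the intracellular tail of the amyloid precursor protein APP and is best known from neurons. GATA6 is a zinc finger transcription factor of the gut epithelium that binds DNA at sites with the core letters GATA. The span of Apbb2 in mm9 was taken as about base 66690000 to base 67010000 from the definition of the window, so no peak was assigned to an exon or intron. In the RefSeq gene table of another assembly, GRCm38.p6, used only for names and order, Apbb2 lies between Nsun7 and Uchl1. Nsun7 encodes a protein of the RNA methyltransferase family and Uchl1 a ubiquitin hydrolase abundant in neurons. The end of Nsun7 overlaps that of Apbb2 there, as does the non-coding gene Gm52775.

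Apbb2 is on the minus strand, so its first annotated start lies at the high-coordinate end of its span, near the last peak of the window. The promoter sequence at this start is shown because the peak at that end was among the 3 least reduced of the 18. It covers 250 bases before to 50 after the start in RefSeq, at chr5:66618768-66619067 of GRCm38.p6, minus strand. These are not mm9 positions. It is printed 5′ to 3′, with the letters GATA, searched on both strands as GATA and TATC, in capitals.
Apbb2 promoter: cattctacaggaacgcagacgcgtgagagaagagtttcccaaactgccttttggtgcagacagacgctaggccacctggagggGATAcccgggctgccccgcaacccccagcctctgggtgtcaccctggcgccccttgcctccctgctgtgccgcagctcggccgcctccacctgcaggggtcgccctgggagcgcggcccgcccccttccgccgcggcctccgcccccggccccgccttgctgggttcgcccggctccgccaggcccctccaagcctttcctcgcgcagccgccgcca
This window is rich in G and C, at 72.0% against a median of 52.7% over the 32851 promoter windows of the same table, and it holds 27 CpG dinucleotides against a median of 7. The letters GATA occur 1 time in it, and 57.9% of all promoter windows hold them on either strand. The longer forms AGATAA and TGATAA, each containing GATA, are not in this window on either strand, and they are found in 11.2% and 9.05% of all windows. These shares were not matched for content of G and C, so nothing is read from the presence or absence of these letters. RefSeq also has a second annotated start of Apbb2, whose promoter window is chr5:66337616-66337915 of GRCm38.p6, minus strand. That window, not printed here, is 61.7% G and C and holds 13 CpG dinucleotides and 0 matches to GATA. It was not placed among the peaks.

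Summed over the window, H3K27ac was lower in the knockout by 43.6%. The 18 peaks together held 469, 492 and 443 CPM in knockout replicates 1 to 3, against 845, 859 and 788 CPM in control replicates 1 to 3. CPM is a read count relative to all reads in peaks of its library (counts per 1000000), scaled by TMM, edgeR's factor for differences in library composition. The highest knockout library lay far below the lowest control library. In these bulk samples, fewer cells with the mark and less of it per cell cannot be told apart. Whether both groups hold the same number of DNA copies of the window was not tested. The means were 468 ± 24.6 CPM in knockout and 831 ± 37.6 CPM in control libraries (SD, n = 3 each), a log2 ratio of -0.83. These sums rest on 2694 to 2763 reads per knockout library and 4409 to 5501 reads per control library. Of all reads on chromosome 5, the window took 0.534% ± 0.0268 in knockout and 0.802% ± 0.0347 in control libraries (SD, n = 3 each). This share is free of any factor common to the chromosome, and its log2 ratio was -0.59.

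Every member had a lower mean in the knockout, with log2 fold changes from -1.26 to -0.46 and a median of -0.81. The median over all 22731 peaks tested was -0.01. In the quasi-likelihood test of edgeR, with p-values adjusted by Benjamini-Hochberg over all peaks and a threshold of 0.05, 18 of 18 members were called lower and 0 higher, where 10.2% of all peaks were called lower and 11.6% higher. In 17 of the 18, all 3 knockout libraries lay below all 3 control libraries, an arrangement found at 16.2% of all peaks and 42.8% of chromosome 5 peaks outside the window. These counts repeat the way the window was chosen, and nothing is read from them. The plot of levels by peak number shows the libraries side by side, with peaks numbered 1 to 18 from low to high coordinate.

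**Figure D1:**
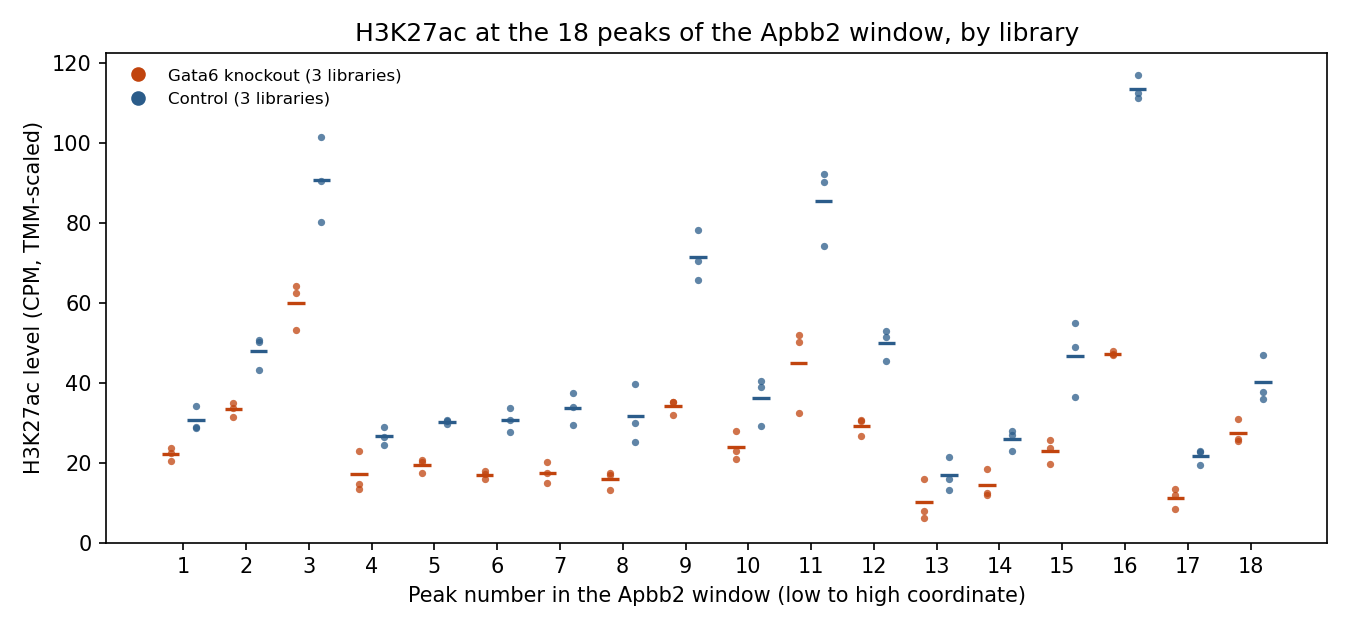
H3K27ac level (CPM, TMM-scaled) of each of the 18 peaks in the Apbb2 window, numbered from low to high coordinate; points are single libraries, knockout to the left of control, and short lines are group means of 3 libraries. Peak 3 has the highest knockout mean, 60.0 CPM, and peak 16 the highest control mean, 114 CPM; the groups overlap at peak 13 only.

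Peak 16, from 66948837 to 66954767, held the most H3K27ac of the window in control organoids and had the largest relative loss. Its level was 47.0, 47.9 and 47.1 CPM in the knockout libraries, against 117, 113 and 111 CPM in the control libraries. Within each group the 3 libraries nearly coincided, and 63.5 CPM separated the highest knockout from the lowest control value. The level was lower by 58.4%, with a log2 fold change of -1.26 ± 0.10 (SE). Per length, it held 7.98 CPM per kb in the knockout, close to the members' median of 7.64 CPM per kb, and 19.2 CPM per kb in control organoids, where it was the densest of the 18. Without this peak, the summed level of the other 17 was 421 ± 24.2 CPM in knockout and 717 ± 36.2 CPM in control libraries (SD, n = 3 each), lower by 41.3%.

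Peaks 9 and 15 were the next most reduced. Peak 9, from 66865374 to 66869618, had 35.2, 35.2 and 32.1 CPM in the knockout libraries, against 70.6, 65.8 and 78.2 CPM in the control libraries. All 3 knockout values stood clear of the controls, by at least 30.6 CPM, and the log2 fold change was -1.07 ± 0.13 (SE). Peak 15, from 66925729 to 66929098, had 23.7, 19.6 and 25.7 CPM in the knockout libraries, against 55.0, 49.1 and 36.4 CPM in the control libraries. Control replicate 3 was the low one here and came nearest to the knockout. The log2 fold change of peak 15 was -1.02 ± 0.15 (SE). These are the 3 members whose control mean was at least 2 times the knockout mean, as was true of 0.409% of all peaks.

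The other strongly acetylated peaks lost less. Peak 3, from 66760765 to 66768569, is the widest of the window at 7805 bp. It held 62.5, 64.2 and 53.2 CPM in the knockout libraries, against 90.4, 102 and 80.2 CPM in the control libraries. This made it the strongest peak of the window in the knockout, ahead of peak 16, although the groups did not overlap. Its log2 fold change was -0.60 ± 0.10 (SE). Peak 11, from 66876561 to 66882458, held 50.1, 52.1 and 32.4 CPM in the knockout libraries, against 92.2, 90.2 and 74.2 CPM in the control libraries. Replicate 3 was the lowest library of either group at this peak, and the log2 fold change was -0.93 ± 0.11 (SE). Peak 12, from 66883179 to 66887015, held 30.8, 30.5 and 26.6 CPM in the knockout libraries, against 52.9, 45.6 and 51.6 CPM in the control libraries. The groups were well apart, with a log2 fold change of -0.77 ± 0.14 (SE).

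The 3 smallest differences were at peaks 1, 2 and 18. Peak 1, from 66702813 to 66705514 at the low-coordinate end, had 20.5, 23.6 and 22.4 CPM in the knockout libraries, against 28.9, 34.3 and 28.6 CPM in the control libraries, and its log2 fold change was -0.46 ± 0.17 (SE). Peak 2, from 66753396 to 66757772, had 33.8, 31.6 and 35.0 CPM in the knockout libraries, against 43.1, 50.2 and 50.7 CPM in the control libraries. The groups were apart at both peaks, and the log2 fold change of peak 2 was -0.52 ± 0.14 (SE). Peak 18, from 67008944 to 67012228, lies at the end of the gene span where Apbb2 has its first annotated start. It had 25.4, 30.8 and 26.0 CPM in the knockout libraries, against 35.8, 37.8 and 47.0 CPM in the control libraries. Control replicate 3 was the high one, and the groups did not overlap. Its log2 fold change of -0.56 ± 0.15 (SE) was close to those of several peaks inside the gene span, such as peaks 3 and 10. Without peak 18 the summed level was lower by 44.3% in the knockout.

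Among the remaining 9 members, log2 fold changes ran from -0.98 at peak 8 to -0.59 at peak 10. Peaks 4, 10 and 13 are singled out here after their values were seen. Peak 13 is the narrowest of the window at 1234 bp and the only one whose groups overlapped. It had 8.01, 16.0 and 6.25 CPM in the knockout libraries, against 16.0, 21.4 and 13.2 CPM in the control libraries, with knockout replicate 2 above control replicate 3. At peaks 4 and 10 the groups were apart by 1.36 and 1.28 CPM only. Knockout replicate 1 was the high library at peak 4, and control replicate 3 the low one at peak 10.

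Along the window, the relative loss was smallest at peak 1 and grew unevenly towards peaks 14 to 16 (Pearson's r = -0.54 and Spearman's rho = -0.49 between log2 fold change and position over 18 peaks, a description since the peaks share libraries). Peak 10, near the centre of the window, had a log2 fold change of -0.59, and peak 17, near its high-coordinate end, one of -0.94. Gaps of more than 30 kb divide the 18 peaks into 5 groups, a division made after the values were seen, and 1 of the 4 gaps, at 30127 bp, only just passes the limit. Peaks 2 to 5 summed to 130 ± 6.77 CPM in knockout and 196 ± 11.3 CPM in control libraries (SD, n = 3 each), a log2 ratio of -0.59. The dense run of peaks 6 to 13, 8 peaks over 43346 bp, summed to 193 ± 18.4 CPM in knockout and 356 ± 24.0 CPM in control libraries, a log2 ratio of -0.89. Peaks 14 to 16 summed to 84.6 ± 1.38 CPM in knockout and 186 ± 10.5 CPM in control libraries, a log2 ratio of -1.14. Peaks 17 and 18 summed to 38.7 ± 4.56 CPM in knockout and 61.9 ± 7.40 CPM in control libraries, a log2 ratio of -0.68. Peak 1 stood alone. Peaks 14 to 16 thus had the largest relative loss of the 5 groups, and peak 1 the smallest. Much of the former rests on peak 16, which held 114 of the 186 CPM of its group in control libraries. Peak 14, at -0.86, lost less than some peaks of other groups, such as peak 9 at -1.07 and peak 17.

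The levels were also expressed as shares of the window's reads. These shares restate the same differences without library scaling or any factor common to the chromosome. Peak 16 took 10.1% ± 0.465 of the window's reads in knockout and 13.7% ± 0.532 in control libraries (SD, n = 3 each). Peak 3 took 12.8% ± 0.690 in knockout and 10.9% ± 0.849 in control libraries, and so was first in the knockout. Peak 9 took 7.30% ± 0.181 in knockout and 8.65% ± 1.16 in control libraries. Peak 1 took 4.75% ± 0.346 in knockout and 3.68% ± 0.291 in control libraries. The shares of peaks 1, 3, 9 and 16 did not overlap between the groups, and those of the other members did. How often shares of other peaks separate in this way was not computed, so nothing is read from this count. Shares of a window also add up to a whole, so a lower share at peak 16 raises the shares of other members. Peaks 2 to 5 together took 27.8% ± 1.37 in knockout and 23.6% ± 0.703 in control libraries, without overlap, and peaks 14 to 16 took 18.1% ± 0.878 in knockout and 22.4% ± 0.539 in control libraries, also without overlap. The shares of peaks 6 to 13 (41.1% ± 1.80 in knockout and 42.8% ± 1.23 in control libraries) and of peaks 17 and 18 (8.27% ± 0.929 in knockout and 7.48% ± 1.23 in control libraries) overlapped.

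**Figure D2:**
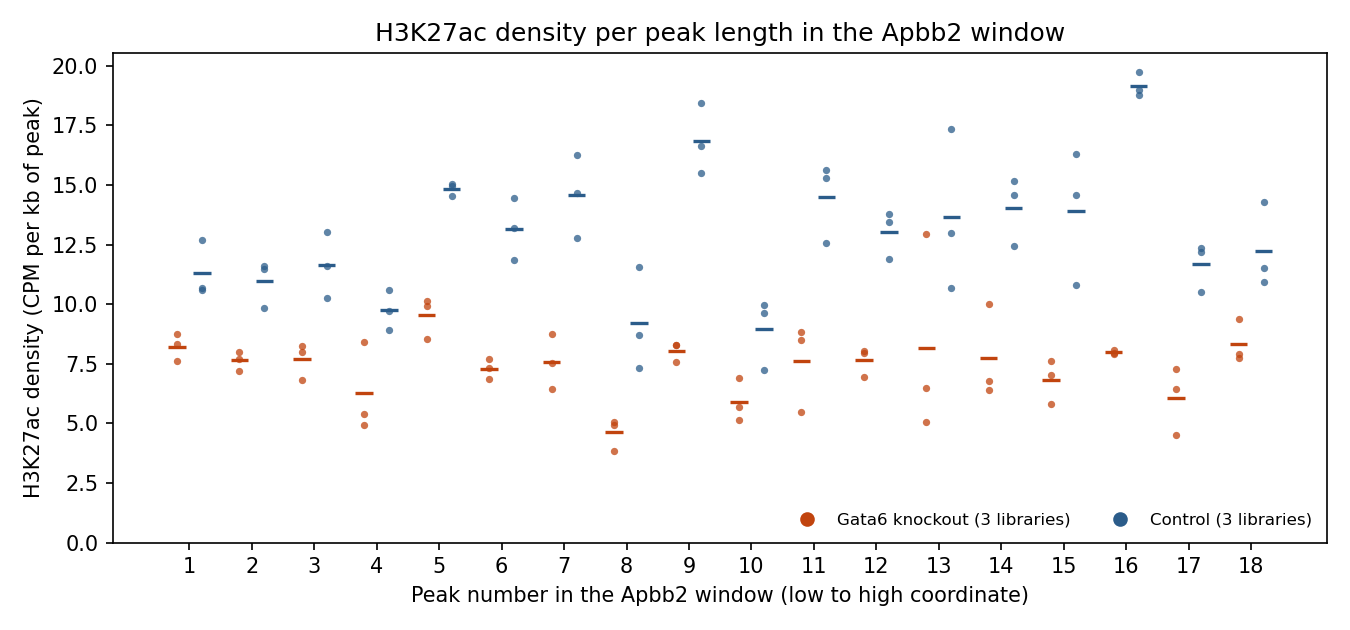
H3K27ac density (CPM per kb of peak) of the 18 peaks, numbered from low to high coordinate; points are single libraries, knockout to the left of control, and short lines are group means of 3 libraries. Knockout means run from 4.62 to 9.54 CPM per kb and control means from 8.94 to 19.2 CPM per kb.

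Per length, the typical member was below the median of all peaks in the knockout and above it in control organoids. The members' median density was 7.64 CPM per kb in knockout and 13.1 CPM per kb in control libraries, while the median over all peaks was 10.7 CPM per kb in both groups. Every member was below it in the knockout, and peaks 4, 8 and 10 were below it in control organoids too. By level rather than density, 6 of the 18 members in the knockout lay above the median level of all peaks in that group, 27.6 CPM, against 14 of 18 above the control median of 27.9 CPM. Peaks with higher control density tended to lose more (Pearson's r = -0.65 and Spearman's rho = -0.59 between log2 fold change and control CPM per kb over 18 peaks). The control values enter both measures, and the peaks share libraries, so this is a description only. Peak width showed no such relation (r = -0.10, rho = -0.05). The spread of density over the 18 peaks, as a coefficient of variation of the group means, was 15.1% in knockout and 20.1% in control organoids. Within single libraries it was 18.5% to 25.1% in knockout and 18.4% to 25.9% in control libraries, ranges that overlap.

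Chromosome 5 peaks as a whole were lower in the knockout, and this shift is contained in the levels and fold changes given above, though not in the share of chromosome 5 reads or the shares within the window. The median log2 fold change was -0.25 over the 1845 chromosome 5 peaks outside the window, against 0.01 over peaks on the other chromosomes. Of these 1845 peaks, 33.2% were called lower and 4.50% higher. When the median of all chromosome 5 peaks, -0.26, was taken off, each of the 18 members was still below 0, from -1.01 at peak 16 to -0.20 at peak 1, with a median of -0.55. In the refit with the shift removed, 11 of 18 members were called lower and 0 higher, where 7.99% of all peaks were called lower and 12.0% higher, and 8.18% of chromosome 5 peaks outside the window were called lower. The 11 were peak 3, peaks 6 to 9, 11, 12 and 14 to 17. The 7 without a call were peaks 1, 2, 4, 5, 10, 13 and 18, so that neither end of the window kept its call. The summed level of the window had a log2 ratio of -0.57 after the shift was taken off.

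Gaps in the peak set bound the 18 members on both sides. The nearest peak on the low-coordinate side, from 66556269 to 66559758, lies 143054 bp from peak 1. It had 24.7, 30.5 and 25.0 CPM in the knockout libraries, against 35.5, 30.8 and 27.8 CPM in the control libraries. The groups overlapped and its log2 fold change of -0.23 ± 0.16 (SE) was close to the chromosome 5 median. The nearest peak on the other side, from 67651486 to 67652770, lies 639257 bp from peak 18 and had a log2 fold change of -0.23 ± 0.19 (SE), with 18.8, 23.9 and 17.0 CPM in the knockout libraries, against 19.3, 23.4 and 26.9 CPM in the control libraries. The log2 fold changes of peaks 1 and 18 were -0.46 ± 0.17 and -0.56 ± 0.15 (SE), so peak 1 differed from its nearest neighbour by little more than their standard errors. Farther out on the low-coordinate side, the peak from 66488738 to 66491034 was called lower, at -0.48 ± 0.15 (SE), which is below peak 1.

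**Figure D3:**
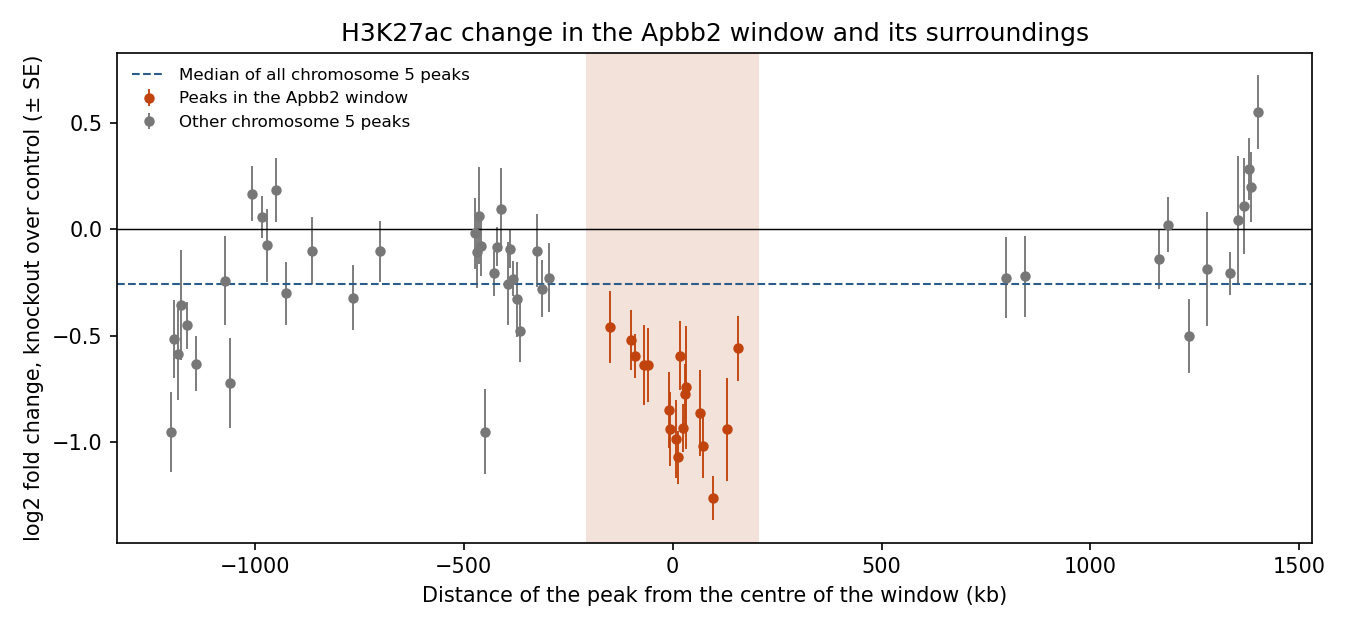
Log2 fold change of H3K27ac, knockout over control, with its standard error, for chromosome 5 peaks by distance in kb from the centre of the Apbb2 window; the shaded band is the window and the dashed line the median of all chromosome 5 peaks, -0.26. The 18 members all lie below that line, between -1.26 and -0.46, with empty stretches on both sides.

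Windows of the same 410 kb on either side gave the local comparison. The adjacent window on the low-coordinate side held 16 peaks and summed to 680.4 ± 31.1 CPM in knockout and 775 ± 18.7 CPM in control libraries (SD, n = 3 each), a log2 ratio of -0.19, with 3 of its peaks called lower and log2 fold changes down to -0.95. The adjacent window on the high-coordinate side held 0 peaks. The second window on the low-coordinate side summed to 328 ± 10.7 CPM in knockout and 336 ± 12.7 CPM in control libraries, and its groups overlapped. The third on that side, with 8 peaks, was lower in the knockout, at 189 ± 14.8 CPM against 278 ± 8.92 CPM in control libraries, a log2 ratio of -0.55. All 8 of its peaks had log2 fold changes below 0, with a median of -0.55. Of the 8, 6 were called lower, where 33.2% of chromosome 5 peaks outside the Apbb2 window were. With the chromosome 5 shift removed, 2 of the 8 were called lower. On the other side, the second window held 2 peaks, with a log2 ratio of -0.22, and the third held 10, with a log2 ratio of -0.01. By summed level, the Apbb2 window therefore had the most H3K27ac of the 7 in control organoids and not in the knockout, where the window before it had more. The peaks of the Apbb2 window also covered the most bases, 63278 bp against 49922 bp in the window before it. Per kb of peak, the Apbb2 window had 13.1 CPM in control libraries, inside the 11.8 to 15.5 CPM of the other windows that held peaks. In knockout libraries it had 7.40 CPM per kb, below the 10.6 to 13.6 CPM per kb of those windows.

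**Figure D4:**
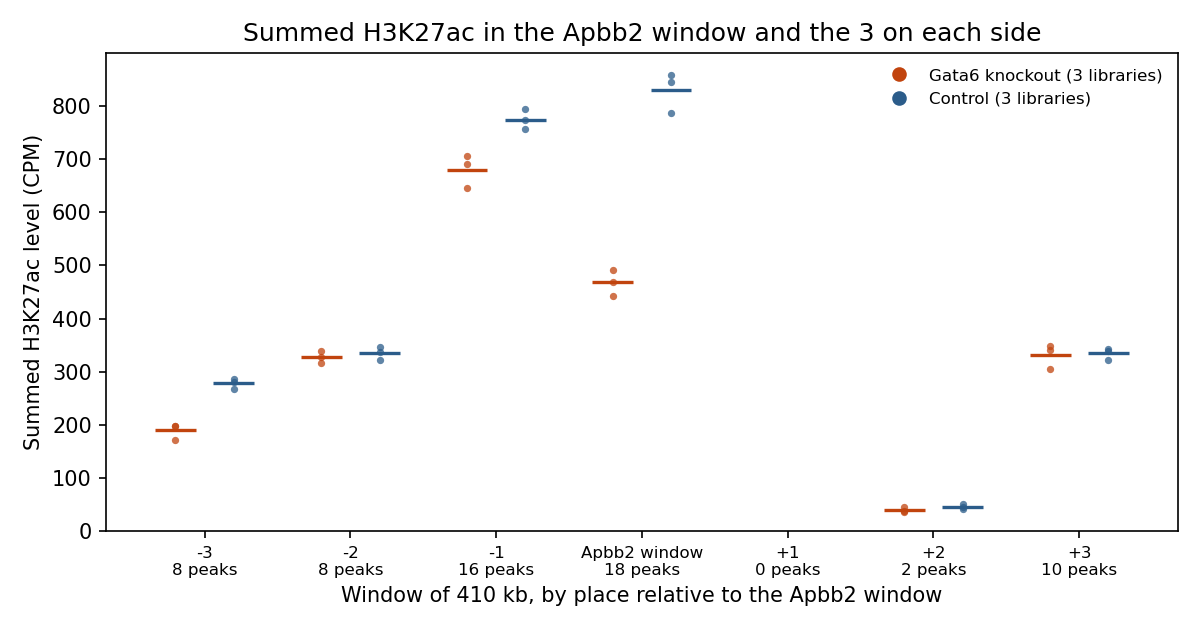
Summed H3K27ac level (CPM) of the Apbb2 window and of the 3 windows of 410 kb on each side, by library; knockout points stand to the left of control points, short lines are group means of 3 libraries, and the number of peaks in each window is below the axis. The Apbb2 window averages 468 CPM in knockout and 831 CPM in control libraries, and the window at +1 holds 0 peaks.

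Peaks elsewhere with a profile most like that of the window over the 6 libraries lay on chromosomes 14, 2, 5 and 1. Likeness was the Euclidean distance between log2 levels centred on their mean, among peaks of at least median level. The nearest was a peak on chromosome 14 from 61490090 to 61493394, at a distance of 0.133, with 23.6 ± 1.28 CPM in knockout and 43.3 ± 1.67 CPM in control libraries (SD, n = 3 each). A peak on chromosome 2 from 169519326 to 169521936 followed at 0.134, with 19.5 ± 1.41 CPM in knockout and 36.1 ± 1.30 CPM in control libraries. The other 3 were on chromosome 5 from 140636985 to 140649125 and from 5418771 to 5421080, and on chromosome 1 from 54660448 to 54663708, at distances of 0.143 to 0.158. Any peak with a similar fold difference and little spread between libraries would score so.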

How the data were processed

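H3K27ac CUT&RUN libraries of mouse colon cancer organoids were analysed, 3 of genotype Gata6KO_AKP and 3 of genotype AKP. Whole-number counts over 1 peak set common to these libraries were deposited, with no normalization. Bowtie, Picard, SAMtools, SEACR and bedtools, with build mm9, are named in the submitters' processing notes, without versions or roles. How peaks were merged and reads counted is not given in the sources used here. Between 82.8% and 88.9% of counts per library were even, a pattern that counting both mates of a pair would give; the counts would then overstate the number of independent fragments.

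Reads in peaks were 5738480, 5495414 and 6196455 in the knockout and 5766379, 5141856 and 7026388 in the control libraries. The expression filter of edgeR removed none of the 22731 peaks. Groups were compared with edgeR 4.0.16 (R 4.3.3): TMM scaling over reads in peaks, a quasi-likelihood model holding group alone, two-sided tests, and Benjamini-Hochberg adjustment over all peaks at 0.05. A change shared by all peaks cannot be seen with this scaling. Standard errors came from the F statistic. Single-library levels are edgeR CPM, and descriptive values used Python 3.11.15 with SciPy 1.17.1.

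The members and the lists were chosen with earlier results of these data known. Values in every library are given for the 6 members of highest level, the 3 lowest and the 3 highest fold changes. Libraries of a group differed by more than sampling noise (chi-square over its degrees of freedom, on halved counts, 1.53 to 1.84). Lists of APP partner genes and of cell type markers were not run, since no mm9 annotation was used here. Promoter sequence is from RefSeq (GRCm38.p6). Alternatives were DESeq2 1.42.0, other scalings, filters and thresholds, halved counts, other window limits, a replicate block and fits without each library.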

Additional observations from a re-analysis of the deposited data

How the results depend on the processing

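Every alternative kept all member peaks below 0: of 306 values of single peaks, 282 kept their side of the threshold, 24 lost it and 0 changed sign. The fit without a filter repeats the main one, since no peak had been filtered, and the stricter filter removed only 3 peaks. The members were chosen as lower in these same libraries, so nothing is read from their signs. The number called lower, 18, became 11 with the chromosome 5 shift removed, whether its median was taken over all its peaks or outside the window only, and 4 in a test against a 1.5-fold change, which fewer peaks can pass by construction. The median member fold change was -0.55 and -0.56 with these shifts removed, and the log2 ratio of the summed level -0.57 with the first. The chromosome 5 median itself was -0.25 by total reads in peaks and -0.28 when scaling came from the other chromosomes. Fits without 1 library gave 15 to 17 members called lower, member medians of -0.87 to -0.72, log2 ratios of the sum of -0.87 to -0.79 and chromosome 5 medians of -0.26 to -0.24. With the replicate number as a block, 18 members were called lower. Deviations of same-numbered libraries correlated at 0.00591 to 0.0668 and some libraries correlated better with another number than with their own, so the numbers show no clear pairing. At an adjusted p under 0.01, 16 were called. Peaks 1, 4, 13 and 18 lost their call in at least 1 of the fits that left out a library. With DESeq2, with scaling by total reads in peaks or by upper quartiles, and with halved counts, 17 members were called lower. Peak 13 lost its call in each of these. Scaling that followed the level of the peaks also left 17, and there peak 1 lost its call. Peaks wholly inside bases 66690000 to 67010000, a limit chosen after the data were seen, numbered 17 called lower. Peak 13, with 39 to 110 reads per library, had the fewest. Its log2 fold change of -0.74 became -1.23 without knockout replicate 2, which held 88 reads against 46 and 39 in the other knockout libraries. Without knockout replicate 1 or 3 it was -0.61 or -0.49, and without control replicate 1, 2 or 3 it was -0.77, -0.54 or -0.90. Whether depth limits the call of peak 13 was not tested.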
